A study of Mus musculus with 45 samples.

Results

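A set of 10 genes of the secretory peptide pathway was followed through AP firing and excitotoxic interventions in hippocampal neurons. They are the granins *Chga*, *Chgb*, *Scg2*, *Scg3* and *Scg5*, the granin-like precursor *Vgf*, the prohormone convertases *Pcsk1* and *Pcsk2*, the carboxypeptidase *Cpe* and the amidating enzyme *Pam*. The genes were taken by name, all 10 were found by Ensembl identifier among the 54532 genes of the count table, and all 10 had reads in every library. RNA was sequenced from primary hippocampal cultures of newborn C57BL/6N mice, which had received AraC, an inhibitor of cell division, on day 3 in vitro and were treated on day 10 or 11 per the labels (day 11 in the methods for the sequencing). The untreated control was compared with bicuculline (Bic, 50 µM), a GABA type A receptor antagonist that makes the network fire action potentials, given alone for 0.5, 1 or 2 h. In the short protocol (SP), tetrodotoxin (TTX, 1 µM), a blocker of AP firing, or TTX together with the receptor agonist NMDA (30 µM) was added after 0.5 h of Bic and the cultures were collected 0.5 h later. In the long protocol (LP), TTX, TTX/NMDA or TBOA (50 µM), a blocker of glutamate uptake that lets glutamate spill out of synapses, was added after 1 h of Bic for 1 further hour. Bic was present in all conditions except the control, and the NMDA conditions always contained TTX as well.

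Each of the 9 conditions had 5 libraries, 1 from each of the culture preparations 1, 3, 6, 7 and 8. The 45 libraries held between 11316580 and 81129276 counts on genes (median 26239614). Levels are given as CPM (counts scaled by TMM to a common library size), as the mean ± SD over the 5 preparations, and values listed for single libraries stand in the order of preparations 1, 3, 6, 7 and 8. Markers of several cell types were present. In the controls the 5 neuronal markers summed to 3973 to 4865 CPM, the 4 excitatory markers to 1805 to 2780 CPM, the 3 inhibitory markers to 1134 to 1690 CPM and the 7 astrocyte markers to 450.02 to 832 CPM. The 6 oligodendrocyte lineage markers reached 50.2 to 74.5 CPM, the 6 vascular and fibroblast markers 58.3 to 136 CPM and the 5 microglial markers 4.71 to 6.17 CPM. Each marker had reads in at least 1 library of every condition, but the endothelial marker *Cldn5* was at 0 in some libraries of all 9 conditions and the microglial marker *P2ry12* in some libraries of 4.

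Dense-core vesicles carry neuropeptides and growth factors and are released mainly during sustained firing. Granins are acidic proteins that aggregate in the trans-Golgi network and help to load these vesicles, and several of them are themselves cut into bioactive peptides. In the maturing vesicle, convertases cleave precursors at pairs of basic residues, carboxypeptidase E trims the basic residues left at the new end, and peptidylglycine alpha-amidating monooxygenase turns a terminal glycine into the amide that many peptides need for activity.

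Per kilobase of exon, *Cpe* was the most abundant of the 10 genes in untreated cultures, with 646 ± 38 CPM per kilobase (SD, n = 5). *Vgf* followed with 153 ± 28.6, *Scg2* with 109 ± 12.2, *Chgb* with 106 ± 6.95 and *Scg5* with 98.7 ± 8.38, and the last 3 lay within each other's spread. *Chga* had 78.9 ± 4.19 and *Scg3* 65.6 ± 5.46 CPM per kilobase. The enzymes that cut and amidate were lower, with 27.8 ± 0.897 for *Pcsk2*, 25.7 ± 3.00 for *Pam* and 13.1 ± 2.53 for *Pcsk1*. This order depends on the lengths, which take in all annotated exons, with 7910, 11892 and 5604 bases for these 3 genes and 2515 for *Scg2*. Without this division, the control means were 220.1 CPM for *Pcsk2*, 306 for *Pam* and 73.3 for *Pcsk1*, against 274 for *Scg2*, 292 for *Chgb* and 217 for *Chga*. Together, the 10 genes took 0.391% ± 0.0115 of all counts in the control and 0.491% ± 0.0283 after 2 h Bic.

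In the GRCm38 assembly, the genes lie on 7 chromosomes. *Vgf* (ENSMUSG00000037428) is at chr5:137026392-137033351 on the plus strand and *Scg2* (ENSMUSG00000050711) at chr1:79434669-79440120 on the minus strand. *Pcsk1* (ENSMUSG00000021587) is at chr13:75089826-75134861 and *Pcsk2* (ENSMUSG00000027419) at chr2:143546156-143816285, both on the plus strand. *Pam* (ENSMUSG00000026335) is at chr1:97795114-98095646 on the minus strand. *Chga* is at chr12:102554969-102565028, *Chgb* at chr2:132781278-132795079, *Scg3* at chr9:75643189-75684056, *Scg5* at chr2:113776362-113829121 and *Cpe* at chr8:64592542-64693054.

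RefSeq promoter sequences (GRCm38.p6, 250 bases before to 50 bases after the start site) were at hand for 8 of the 10 genes, all but *Vgf* and *Cpe*. They were searched on both strands for the cAMP response element TGACGTCA, which is bound by CREB, and for its core TGACG, which the full element contains. The full element was present in 3 of the 8 genes, *Scg2*, *Pcsk1* and *Chgb*, against 1.79% of all 32851 promoters in the RefSeq table. The core was present in 7 of the 8, all but *Pam*, against 20.8% of all promoters. The 3 full elements are shown with 11 bases on either side, because 2 of these genes rose with AP firing and the other was not called, together with the core in the promoter of *Chga*. Capitals mark the element or the core, and each sequence reads 5′ to 3′ on the strand of its gene.
Scg2: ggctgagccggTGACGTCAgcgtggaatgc
Pcsk1: ccaggtagatcTGACGTCAagagatggctt
Chgb: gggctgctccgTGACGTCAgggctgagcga
Chga: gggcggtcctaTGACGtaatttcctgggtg

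The 8 bases of the element lie between 68 and 61 bases before the RefSeq start of *Scg2* (chr1:79440087-79440094), between 78 and 71 bases before that of *Pcsk1* (chr13:75089779-75089786) and between 72 and 65 bases before that of *Chgb* (chr2:132781570-132781577). GENCODE places the starts of *Scg2* and *Chgb* further upstream, so that these 2 elements fall inside an annotated exon, while those of *Pcsk1* and *Chga* do not. The core in *Chga* is at chr12:102554897-102554901. The 119 bases before the GENCODE start of *Pcsk1*, the gene with the widest range of levels, hold the full element and a separate core (chr13:75089707-75089825, plus strand).
Pcsk1: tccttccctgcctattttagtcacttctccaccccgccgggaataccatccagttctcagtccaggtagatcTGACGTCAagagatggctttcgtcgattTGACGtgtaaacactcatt

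The first question was which of the genes respond to AP firing and when. After 2 h Bic, *Pcsk1*, *Scg2*, *Vgf* and *Pam* had higher levels than in the control, whereas the other 6 genes were not called and none was lower. A gene was called when its Benjamini-Hochberg adjusted p in edgeR's quasi-likelihood test, fitted on the 10 libraries compared, was under 0.05, and 9.02% of all 30929 genes tested were called in this comparison. Among the 2003 genes at least as abundant as the lowest of the 10, 10.3% were higher. The median log2 fold change was 0.17 over the 10 genes and −0.0061 over all genes. Cell type markers moved in the same comparison. The inhibitory marker *Slc32a1* (0.36) and the excitatory marker *Slc17a6* (0.40) were called higher and the excitatory marker *Neurod6* (−0.35) lower. The inhibitory sum was 1444 ± 217 CPM in the control and 1697 ± 202 CPM after 2 h Bic, with all 3 inhibitory markers higher in the paired fit described next. That fit also called 3 of 7 astrocyte, 2 of 5 oligodendrocyte lineage and 2 of 5 vascular and fibroblast markers higher. Of the neuronal markers it called 1 higher and 1 lower. The part of these marker shifts in the levels of the 10 genes was not tested. After 0.5 h Bic, 0 of the 10 genes were called by edgeR, by DESeq2 or in the fit with the preparation as a block (hereafter the paired fit). At that time 1 of them, *Vgf*, had an unadjusted p under 0.05, and 0.289% of all genes were called. After 1 h, *Vgf* and *Scg2* were called, against 1.16% of all genes. Between 1 and 2 h Bic, the same 4 genes as in the comparison of 2 h with the control rose, against 5.33% of all genes. The paired fit covers only the genes that pass edgeR's filterByExpr, for 2 h Bic against the control 15269 genes in place of 30929. Shares called in this fit are over those genes, so that they are not on the same base as the shares over all genes. The paired fit also called *Pcsk1* after 1 h (4.07% of the genes in that fit) and *Chga* after 2 h (29.3%). Between 1 and 2 h it also called *Scg3*, *Chga* and *Chgb* (23.5%), and all of these were higher.

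**Figure D1:**
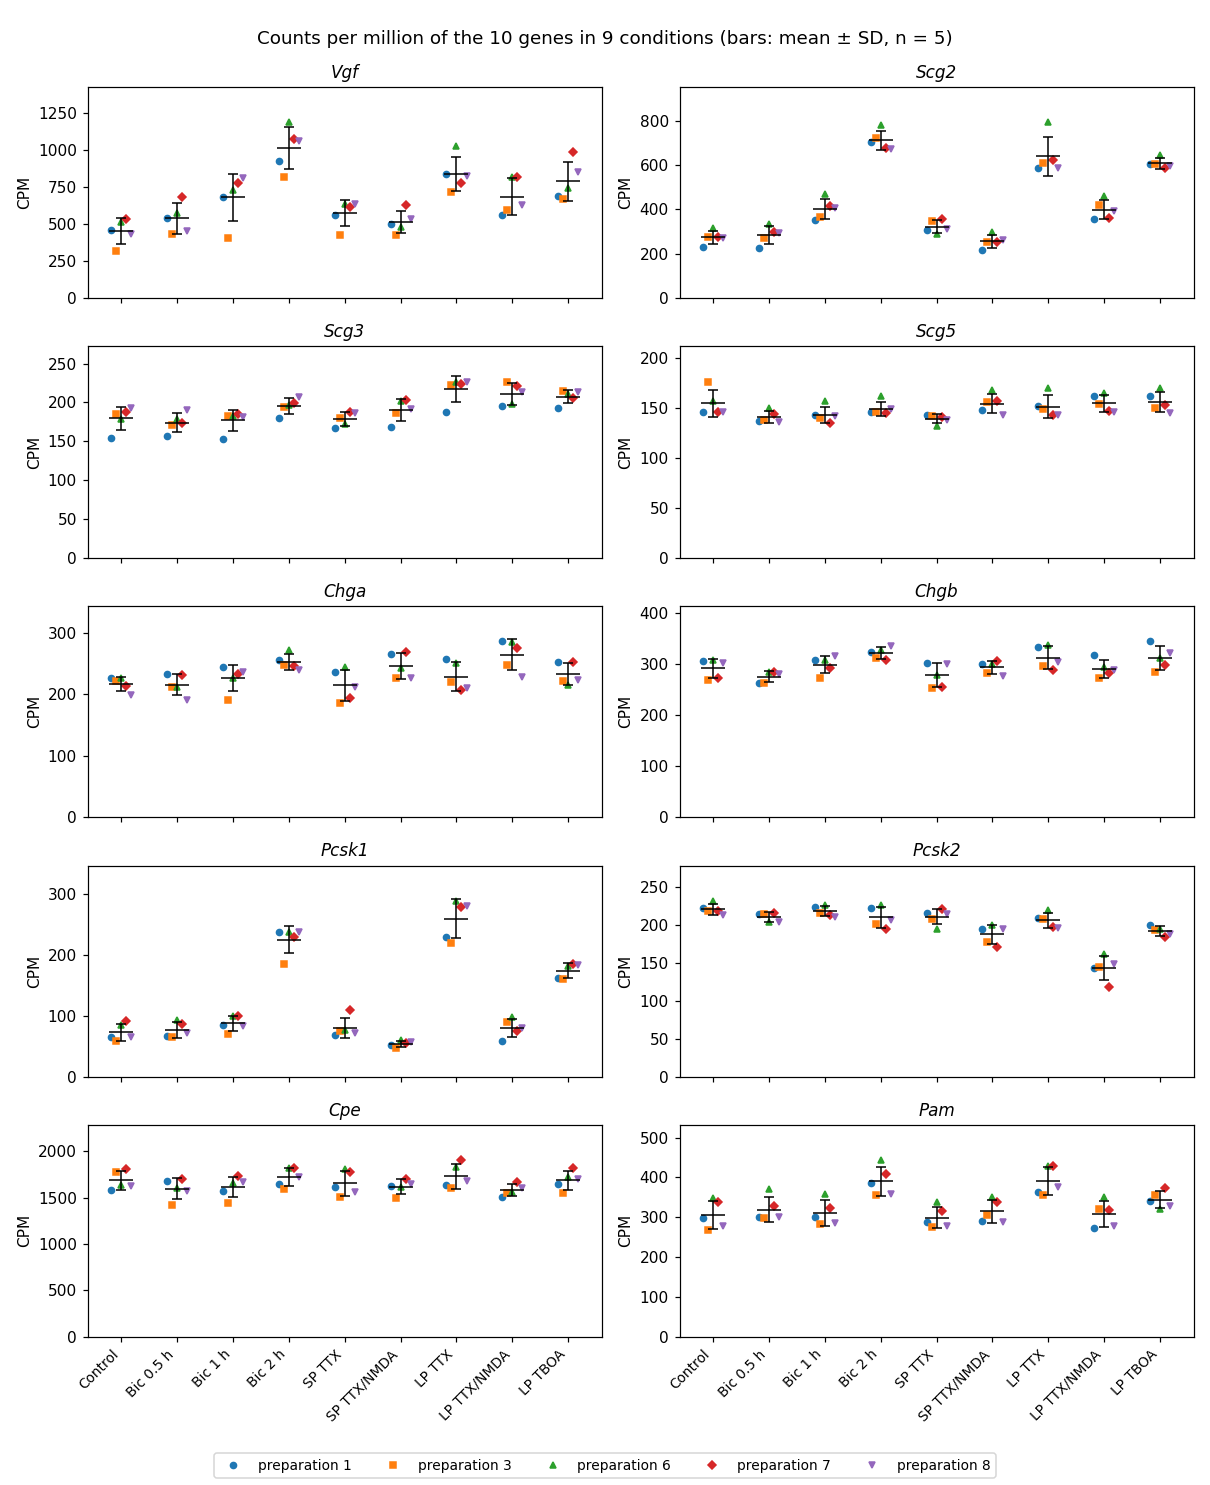
Level in CPM (vertical axes, from 0) of each of the 10 genes in the 9 conditions (horizontal axis), with 1 point per culture preparation and bars for the mean ± SD (n = 5). *Pcsk1* ranges from a mean of 54.1 CPM in the SP with TTX/NMDA to 259 CPM in the LP with TTX, whereas the highest mean of *Scg5* is 1.12 times its lowest.

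The second question was what happens to these levels when AP firing is stopped (passive effect, TTX against Bic of the same total duration) and when NMDA is added (active effect, TTX/NMDA against TTX). The comparisons share libraries with each other, so that each gene's values are given side by side. In the SP only *Scg2* was called, lower with TTX (0.268% of all genes), and in the paired fit no member was (0.489% of the genes in that fit). In the LP only *Vgf* was called, lower with TTX (4.65% of all genes). The paired fit called 5 members, *Vgf*, *Scg2* and *Chga* lower and *Scg3* and *Pcsk1* higher (32% of the genes in that fit). The active effect was lower levels in the SP for *Scg2* and *Pcsk1* (4.28% of all genes called, and 19.97% of the 2003 genes at least as abundant lower, a share like the 2 of 10), and in the LP for *Pcsk1*, *Scg2*, *Pcsk2*, *Pam* and *Vgf* (23.3% of all genes). The median log2 fold change of the 10 genes in the LP was −0.22, against 0.11 over all genes and −0.011 over the 13592 genes with a mean of at least 1 CPM.

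The 5 of 10 genes with lower levels in the LP with TTX/NMDA have to be read against a wide response. Of the 2003 genes at least as abundant, 60.4% were lower and 6.89% higher. In the paired fit *Cpe* was also lower and *Chga* higher (62.1% of the 16399 genes in that fit called). Markers of cell types moved in the same comparison. The 4 excitatory markers all fell, and their sum went from 2367 ± 196 to 1251 ± 182 CPM. The 7 astrocyte markers all rose, with their sum at 458 to 962 CPM with TTX and at 816 to 1716 CPM with TTX/NMDA. The neuronal marker sum went from 4808 ± 129 to 3926 ± 111 CPM with 2 of 5 markers lower. The inhibitory sum was 1719 ± 236 and 1983 ± 265 CPM with 1 of 3 markers higher. Of the oligodendrocyte lineage markers 4 of 6 rose, with the sum at 46.7 to 73.9 CPM and at 55.03 to 121 CPM, and of the vascular and fibroblast markers 4 of 6 rose, with the sum at 66.4 to 143 CPM and at 86.4 to 206 CPM. Microglial markers summed to 5.92 ± 0.821 and 7.06 ± 1.1 CPM, with 2 of 5 higher. In the SP, the excitatory marker sum was 2482 ± 264 CPM with TTX and 1716 ± 213 CPM with TTX/NMDA, with 3 of 4 markers called lower. The inhibitory sum was 1368 ± 168 and 1763 ± 256 CPM, with 2 of 3 markers called higher and 3 of 3 in the paired fit, and the astrocyte sum was 799.7 ± 219 and 777 ± 227 CPM with 0 of 7 called by edgeR and 1 of 7 higher in the paired fit. The part of these shifts in the levels of the 10 genes was not tested, and in bulk RNA fewer cells of a type cannot be told apart from less RNA per cell.

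The total effect, TTX/NMDA against Bic, was lower levels of *Scg2*, *Pcsk1*, *Vgf* and *Pcsk2* in the SP (4.3% of all genes called) and of the same 4 genes and *Pam* in the LP (22.8% of all genes). Of the 2003 genes at least as abundant, 21.6% were lower in the SP and 59.9% in the LP, so that the 5 of 10 in the LP are under that share. In the LP, the paired fit also called *Chgb* and *Cpe* lower and *Scg3* higher (56.6% of the genes in that fit). Glutamate spillover, TBOA against 2 h Bic, was a weaker intervention, with 0.602% of all genes called. *Pcsk1* was the only one of the 10 that was called, lower with TBOA. The paired fit added *Vgf* and *Scg2*, also lower (2.67% of the genes in that fit). Beside these, the excitatory marker sum was 2522 ± 184 CPM after 2 h Bic and 2175 ± 207 CPM with TBOA, and the astrocyte sum 683 ± 155 and 831 ± 163 CPM, whose part was not tested.

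**Figure D2:**
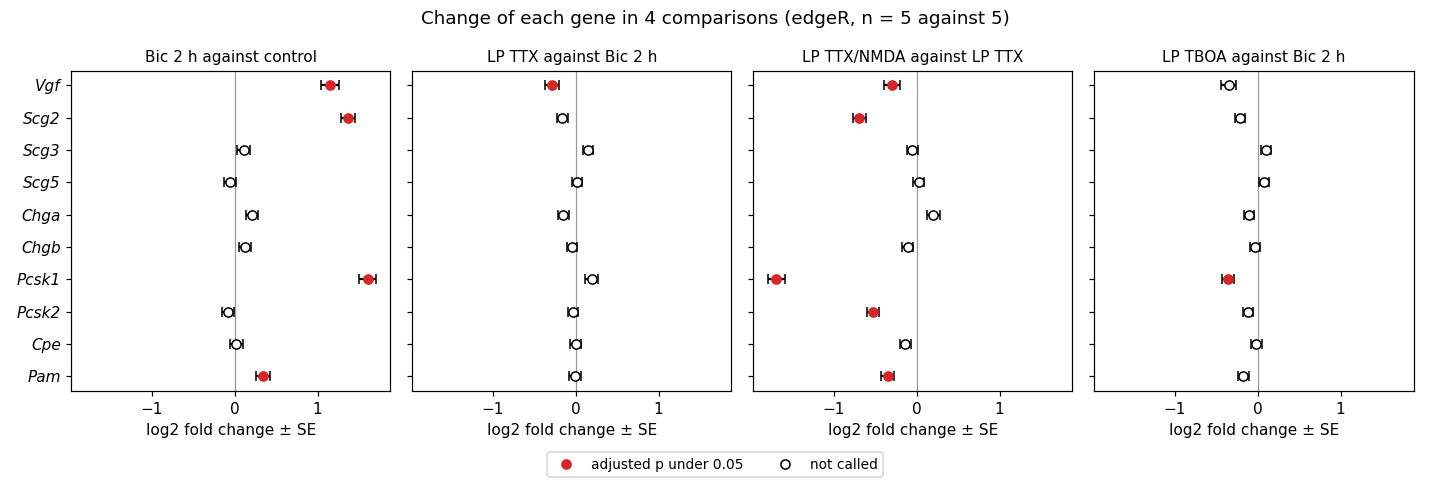
Log2 fold change with its standard error (horizontal axes) of each of the 10 genes (vertical axis) in 4 comparisons of 5 with 5 libraries. Filled red points are called and open points are not. After 2 h Bic *Pcsk1* is farthest to the right at 1.6, and with TTX/NMDA against TTX in the LP it is farthest to the left at −1.70.

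*Vgf* encodes a secreted precursor whose peptides act on synapses and energy balance. In the control its levels were 463, 321, 516, 536 and 432 CPM, and after 2 h Bic they were 929, 818, 1190.2, 1077 and 1059.5 CPM. The 2 groups did not overlap, and preparation 3 was lowest in both. The mean was 454 ± 85.1 CPM in the control, 539 ± 102 after 0.5 h, 681 ± 159.7 after 1 h and 1015 ± 144 after 2 h Bic. *Vgf* was higher after 0.5 h in 5 of 5 preparations, by 19.4% ± 11.9, without passing the test (adjusted p = 0.844). The log2 fold change was 0.58 (SE 0.12, adjusted p = 0.00358) after 1 h, with overlapping groups, and 1.15 (SE 0.11, adjusted p = 3.54e-10) after 2 h. The step from 1 to 2 h was 0.57 (SE 0.11, adjusted p = 0.000504).

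With the interventions, mean *Vgf* levels were 574 ± 88.7 CPM with TTX and 514 ± 75.1 CPM with TTX/NMDA in the SP. In the LP they were 837 ± 117 CPM with TTX, 685 ± 125 CPM with TTX/NMDA and 788 ± 132 CPM with TBOA. In the SP, the difference from 1 h Bic was −0.25 (SE 0.11, adjusted p = 0.879) with TTX and −0.41 (SE 0.11, adjusted p = 0.0244) with TTX/NMDA. The former passed the test without preparation 3 (adjusted p = 0.0485), and the latter did not pass it without preparation 1 (adjusted p = 0.0733). In the LP, *Vgf* was lower with TTX than after 2 h Bic in 5 of 5 preparations, by 0.29 on the log2 scale (−0.29, SE 0.08, adjusted p = 0.0425), a call that was lost without preparation 1 (adjusted p = 0.0581) and without preparation 7 (adjusted p = 0.149). TTX/NMDA was lower than TTX in 4 of 5 preparations (−0.30, SE 0.10, adjusted p = 0.0282; 0.119 without preparation 1). Against 2 h Bic, TTX/NMDA gave −0.58 (SE 0.10, adjusted p = 2.33e-05), lower in 5 of 5 preparations. The TBOA difference of −0.35 (SE 0.09) was also seen in 5 of 5 preparations, with an adjusted p of 0.0599 that became 0.00987 in the paired fit. It passed the test without preparation 3 (adjusted p = 0.00934), 7 (0.0023) or 8 (4.2e-05). Under the filterByExpr filter, *Vgf* lost its calls after 1 h Bic (edgeR adjusted p = 0.115), for the total effect in the SP (0.108) and for the passive (0.0909) and active (0.0971) effects in the LP.

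*Scg2* encodes secretogranin II, the precursor of the peptide secretoneurin. Its control levels of 231, 277, 318, 273 and 270.4 CPM became 703, 722, 779, 678 and 674 CPM after 2 h Bic. Every library of the later group was far above the highest control. The mean was 274 ± 30.6 CPM in the control, 285 ± 40.4 after 0.5 h, 401 ± 45.6 after 1 h and 711 ± 42.7 after 2 h. Nothing was detectable at 0.5 h (log2 fold change 0.055, SE 0.09, adjusted p = 0.949). *Scg2* was higher after 1 h (0.55, SE 0.09, adjusted p = 5.12e-05) and 2 h (1.36, SE 0.08, adjusted p = 3.58e-15), in both cases without overlap with the control. The step from 1 to 2 h was 0.82 (SE 0.07, adjusted p = 9.07e-11). Its step from 1 to 2 h was larger than its rise up to 1 h, though the steps were not tested against each other.

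With the interventions, mean *Scg2* levels were 322 ± 28.2 CPM with TTX and 256 ± 28.4 CPM with TTX/NMDA in the SP. In the LP they were 639.9 ± 87.8 CPM with TTX, 398 ± 42.3 CPM with TTX/NMDA and 607 ± 23.1 CPM with TBOA. In the SP, TTX lowered *Scg2* against 1 h Bic in 5 of 5 preparations (−0.32, SE 0.08, adjusted p = 0.046), but the call was lost in the paired fit (adjusted p = 0.0991) and without preparation 1 (0.0591) or 6 (0.851). TTX/NMDA was lower than TTX (−0.34, SE 0.08, adjusted p = 0.00435) in 4 of 5 preparations. Against 1 h Bic it was lower by 36.2% ± 3.38 in 5 of 5 preparations, without overlap (−0.65, SE 0.08, adjusted p = 1.76e-07).

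In the LP, the single *Scg2* levels were 586, 610.2, 794, 624 and 586 CPM with TTX and 358, 418, 460.4, 363 and 393 CPM with TTX/NMDA. All 5 libraries with TTX/NMDA lay under all 5 with TTX (−0.69, SE 0.08, adjusted p = 1.38e-07). The difference between TTX and 2 h Bic was small (−0.16, SE 0.07, adjusted p = 0.253; 0.00466 in the paired fit). *Scg2* with TTX/NMDA stood where it had been when the drugs were added, with a log2 difference from 1 h Bic of −0.023 (SE 0.08, adjusted p = 0.886). With TTX it went on to rise past that level (0.66, SE 0.08, adjusted p = 4.98e-08). With TBOA, all 5 libraries were under the lowest of 2 h Bic, by 14.5% ± 2.23 within preparations. Here the adjusted p was 0.0915 for a log2 difference of −0.22 (SE 0.06), 0.011 in the paired fit and 0.00219 in DESeq2.

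**Figure D3:**
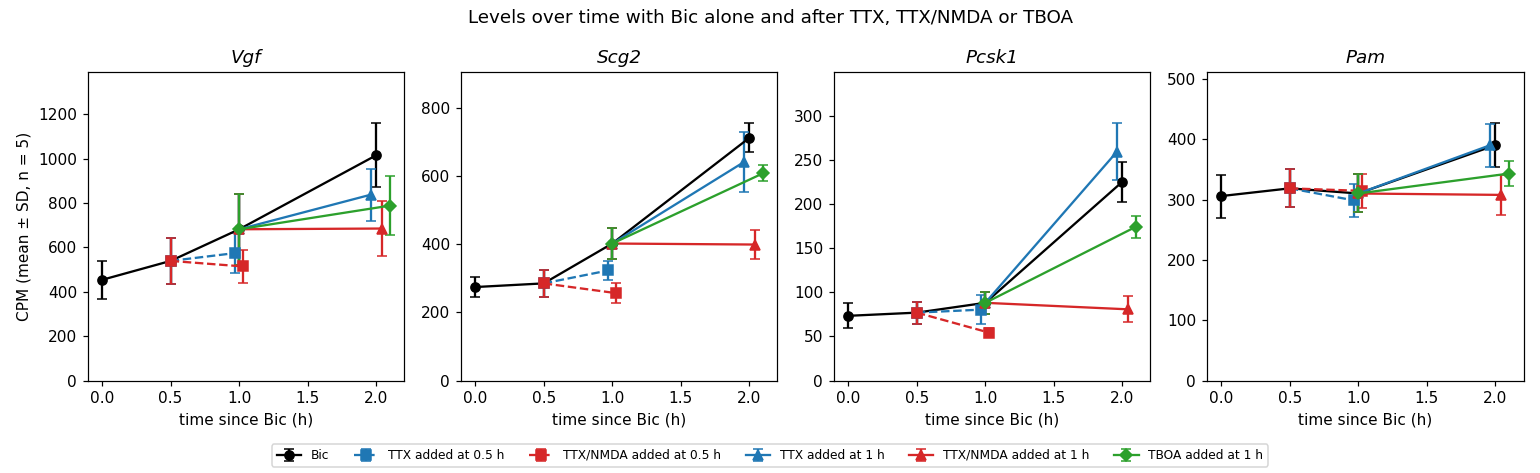
Mean level in CPM ± SD (vertical axes, n = 5) against the time since Bic was added (horizontal axes, in h) for *Vgf*, *Scg2*, *Pcsk1* and *Pam*. Black lines are Bic alone, and coloured lines lead from the time at which TTX, TTX/NMDA or TBOA was added to the end of the protocol, with symbols shifted slightly in time where they would coincide. In the LP, *Scg2*, *Pcsk1* and *Pam* stay near their 1 h level with TTX/NMDA and rise past it with TTX.

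*Chga* and *Chgb* encode chromogranins A and B, the classical acidic granins. Mean *Chga* levels were 217 ± 11.5 CPM in the control, 216 ± 17.2, 226 ± 20.9 and 252 ± 12.8 CPM after 0.5, 1 and 2 h Bic, 215 ± 25.5 and 246 ± 20.7 CPM in the SP with TTX and TTX/NMDA, and 229 ± 23.4, 265 ± 25.6 and 233 ± 18.5 CPM in the LP with TTX, TTX/NMDA and TBOA. Unlike the other granins, *Chga* had its highest mean with TTX/NMDA in the LP. After 2 h Bic it was higher than in the control in 5 of 5 preparations without overlap, by 16.1% ± 3.95, with a log2 fold change of 0.20 (SE 0.07, adjusted p = 0.086) that passed the test in the paired fit (0.00679). In the LP it was higher with TTX/NMDA than with TTX in 5 of 5 preparations (0.20, SE 0.08, adjusted p = 0.0561; 0.00075 in the paired fit). With TTX against 2 h Bic the value was −0.15 (SE 0.07, adjusted p = 0.249; 0.00628 in the paired fit). Between 1 and 2 h Bic it was 0.15 (SE 0.07, adjusted p = 0.275; 0.0174 in the paired fit). From 1 h Bic to TTX/NMDA in the LP it rose by 0.22 (SE 0.08, adjusted p = 0.0436), a call lost without preparation 1 (0.0839), 3 (0.122), 6 (0.167) or 7 (0.071) and with DESeq2 (0.0637).

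Mean *Chgb* levels were 292 ± 19 CPM in the control, 275 ± 11.3, 299 ± 17.3 and 321 ± 11.9 CPM after 0.5, 1 and 2 h Bic, 278 ± 23.2 and 293 ± 13.3 CPM in the SP with TTX and TTX/NMDA, and 312 ± 22.2, 291 ± 17.3 and 312 ± 22.9 CPM in the LP with TTX, TTX/NMDA and TBOA. The highest of these means was 1.17 times the lowest. *Chgb* was higher after 2 h Bic than in the control in 5 of 5 preparations, by 10.3% ± 4.18, and did not pass the test (0.13, SE 0.07, adjusted p = 0.394; 0.056 in the paired fit). Paired calls alone were made for the step from 1 to 2 h (0.097, SE 0.06, adjusted p = 0.549; 0.0393 in the paired fit) and for TTX/NMDA against 2 h Bic in the LP (−0.16, SE 0.07, adjusted p = 0.0879; 0.0298 in the paired fit). *Chgb* has the same full element before its RefSeq start as *Scg2* and *Pcsk1*, though inside an exon of the GENCODE gene. Its changes were small beside those of these 2 genes, and the part of the element was not tested.

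*Scg3* and *Scg5* encode helper granins. Secretogranin III tethers chromogranin aggregates to the vesicle membrane, and secretogranin V, also called 7B2, is the chaperone of the convertase encoded by *Pcsk2*. Mean *Scg3* levels were 179.7 ± 15 CPM in the control, 174 ± 12.5, 177 ± 13.6 and 195 ± 10.1 CPM after 0.5, 1 and 2 h Bic, 178 ± 8.81 and 190.1 ± 14.1 CPM in the SP with TTX and TTX/NMDA, and 217 ± 16.6, 211 ± 13.7 and 208 ± 8.91 CPM in the LP with TTX, TTX/NMDA and TBOA. In the LP, *Scg3* was higher than at 1 h Bic with TTX (0.29, SE 0.07, adjusted p = 0.00323) and with TTX/NMDA (0.24, SE 0.07, adjusted p = 0.0114), each time in 5 of 5 preparations and without overlap. It was therefore the granin that rose after 1 h whether or not NMDA was present, with −0.054 (SE 0.07, adjusted p = 0.604) between TTX/NMDA and TTX. The paired fit alone called *Scg3* higher in 2 h against 1 h Bic (0.13, SE 0.06, adjusted p = 0.369; 0.00972 in the paired fit), in TTX against 2 h Bic (0.15, SE 0.06, adjusted p = 0.211; 0.0103) and in TTX/NMDA against 2 h Bic (0.099, SE 0.07, adjusted p = 0.324; 0.038). Preparation 1 had the lowest *Scg3* level in every condition.

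Mean *Scg5* levels were 155 ± 13.2 CPM in the control, 141 ± 6.20, 143 ± 8.06 and 149.6 ± 7.03 CPM after 0.5, 1 and 2 h Bic, 139 ± 4.64 and 155 ± 9.69 CPM in the SP with TTX and TTX/NMDA, and 152 ± 11.3, 155 ± 8.45 and 156 ± 10.2 CPM in the LP with TTX, TTX/NMDA and TBOA. It was not called in any of the 13 comparisons of conditions. The paired fit alone called it in TTX/NMDA of the LP against 1 h Bic (0.10, SE 0.07, adjusted p = 0.351; 0.0448 in the paired fit).

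*Pcsk1* encodes the convertase PC1/3, which makes the first cuts in many prohormones, and had the widest range of the 10 genes. Its levels were 65.9, 58.4, 85.3, 91.3 and 65.5 CPM in the control, 85.8, 70.7, 100.3, 99.4 and 83.7 CPM after 1 h Bic and 237, 185, 237, 229 and 238 CPM after 2 h Bic. All libraries of the 2 h group were well above every library of the other 2 groups, and preparation 3 was the lowest of each. The mean was 73.3 ± 14.2 CPM in the control, 76.9 ± 12.4 after 0.5 h, 88.0 ± 12.3 after 1 h and 225 ± 22.5 after 2 h. *Pcsk1* was late: the log2 fold change was 0.066 (SE 0.10, adjusted p = 0.93) after 0.5 h, 0.26 (SE 0.10, adjusted p = 0.481) after 1 h and 1.6 (SE 0.10, adjusted p = 1.12e-14) after 2 h. At 1 h it was higher in 5 of 5 preparations, by 21.1% ± 8.52, and was called in the paired fit (adjusted p = 0.0123). Between 1 and 2 h it rose by 158% ± 23.7 within preparations (1.35, SE 0.08, adjusted p = 9.65e-15).

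With TTX in the LP, the *Pcsk1* levels of 229, 219, 289, 278 and 281 CPM (mean 259 ± 32.3) were not under those after 2 h of uninterrupted Bic. The log2 difference was 0.19 (SE 0.08, adjusted p = 0.18), and 4 of 5 preparations were higher with TTX, a difference called in the paired fit (adjusted p = 0.00486). From 1 h Bic to TTX in the LP, *Pcsk1* rose by 196% ± 26.9 (1.55, SE 0.08, adjusted p = 3.78e-17), in 1 h without AP firing. With TTX/NMDA the levels were 59.4, 89.7, 98.5, 75.0 and 80.6 CPM (mean 80.6 ± 14.9). Every one was far under the lowest level with TTX. The active effect was −1.70 (SE 0.10, adjusted p = 1.46e-13), or 68.7% ± 6.23 lower within preparations, and the total effect −1.50 (SE 0.09, adjusted p = 2.22e-14). Against 1 h Bic, TTX/NMDA gave −0.14 (SE 0.10, adjusted p = 0.35), with 4 of 5 preparations lower.

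In the SP, *Pcsk1* was at 68.6, 75.7, 76.5, 109 and 71.7 CPM with TTX (mean 80.3 ± 16.3) and at 51.8, 46.9, 59.9, 55.2 and 56.9 CPM with TTX/NMDA (mean 54.1 ± 4.99). The groups did not overlap (−0.57, SE 0.09, adjusted p = 5.39e-05), and the latter was also under 1 h Bic (−0.70, SE 0.08, adjusted p = 1.09e-07). TTX alone gave −0.14 (SE 0.09, adjusted p = 0.879) against 1 h Bic. With TBOA in the LP, *Pcsk1* was at 162, 160.0, 181, 185 and 183 CPM (mean 174 ± 12.3), lower than after 2 h Bic in 5 of 5 preparations by 22.2% ± 6.65 (−0.36, SE 0.07, adjusted p = 0.0036). The groups were separate by a narrow margin, 185.1 against 185.3 CPM, and the call was lost under the filterByExpr filter (adjusted p = 0.0543).

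*Pcsk2* encodes the convertase PC2, which acts after PC1/3 in the secretory pathway. It did not follow *Pcsk1*. Mean levels were 220.1 ± 7.09 CPM in the control, 210.01 ± 5.98, 217 ± 6.68 and 209.6 ± 13.6 CPM after 0.5, 1 and 2 h Bic, 210.3 ± 9.94 and 187 ± 12.1 CPM in the SP with TTX and TTX/NMDA, and 206 ± 9.77, 143 ± 16 and 192 ± 6.30 CPM in the LP with TTX, TTX/NMDA and TBOA. No Bic duration changed it enough to be called, with log2 differences from the control between −0.082 and −0.022. In the LP its single levels were 209, 207, 219, 197 and 196 CPM with TTX and 143, 144, 162, 118 and 148 CPM with TTX/NMDA. The groups did not overlap (−0.53, SE 0.07, adjusted p = 1.25e-06), with 30.5% ± 6.15 less within preparations. With TTX/NMDA, *Pcsk2* was also under its level at the time the drugs were added (−0.62, SE 0.07, adjusted p = 4.04e-08 against 1 h Bic). The total effect was −0.57 (SE 0.07, adjusted p = 3.17e-07). In the SP, TTX/NMDA was −0.18 (SE 0.07, adjusted p = 0.16) from TTX and −0.22 (SE 0.06, adjusted p = 0.0396) from 1 h Bic, the latter without overlap. This last call was lost without preparation 1 (0.129), 3 (0.168), 6 (0.0995) or 7 (0.161). TBOA gave −0.12 (SE 0.06, adjusted p = 0.633).

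*Cpe* encodes carboxypeptidase E. Mean levels were 1685 ± 99.1 CPM in the control, 1595 ± 112, 1615 ± 112 and 1720.2 ± 100.1 CPM after 0.5, 1 and 2 h Bic, 1653 ± 135 and 1618 ± 78.0 CPM in the SP with TTX and TTX/NMDA, and 1729 ± 131, 1579.7 ± 62.9 and 1686 ± 99.3 CPM in the LP with TTX, TTX/NMDA and TBOA. It was not called in any comparison. With TTX/NMDA in the LP it was lower in 5 of 5 preparations than with TTX (−0.14, SE 0.07, adjusted p = 0.157) and than after 2 h Bic (−0.14, SE 0.07, adjusted p = 0.168), and the paired fit called both (0.0343 and 0.0473).

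*Pam* encodes the amidating monooxygenase. Its levels were 299, 268, 349, 337 and 277 CPM in the control and 386, 356, 443, 409 and 359 CPM after 2 h Bic. The groups were just separate, and preparation 6 was the highest of both. Mean levels were 306 ± 35.7 CPM in the control and 319 ± 31.4, 310.4 ± 31.5 and 391 ± 36.2 CPM after 0.5, 1 and 2 h Bic. Nothing passed the test at 0.5 h (0.058, SE 0.09, adjusted p = 0.927) or 1 h (0.016, SE 0.09, adjusted p = 0.993), and the log2 fold change at 2 h was 0.34 (SE 0.09, adjusted p = 0.00637). The whole rise came between 1 and 2 h, at 25.9% ± 1.75 within preparations (0.32, SE 0.07, adjusted p = 0.00264).

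In the SP, mean *Pam* levels were 299 ± 27.3 CPM with TTX and 315 ± 28.8 CPM with TTX/NMDA (0.067, SE 0.07, adjusted p = 0.653). In the LP they were 390.3 ± 35.6 CPM with TTX, 308 ± 33 CPM with TTX/NMDA and 343 ± 21.1 CPM with TBOA. The single levels were 362, 356, 429.7, 427 and 376 CPM with TTX and 273, 321, 352, 318 and 277 CPM with TTX/NMDA, without overlap (−0.35, SE 0.08, adjusted p = 0.000884). With TTX the level was not called against 2 h Bic (−0.0097, SE 0.07, adjusted p = 0.953) and was above 1 h Bic (0.32, SE 0.07, adjusted p = 0.00216). TTX/NMDA was under 2 h Bic (−0.36, SE 0.08, adjusted p = 0.00061) and near 1 h Bic (−0.023, SE 0.08, adjusted p = 0.883). TBOA gave −0.17 (SE 0.06, adjusted p = 0.408).

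The levels in the LP were also set against those at 1 h Bic, the time at which the drugs were added. With TTX, *Pcsk1*, *Scg2*, *Pam* and *Scg3* were higher than at that time and none was lower, with 7.19% of all genes called. The paired fit added *Vgf*, higher (0.29, SE 0.11, adjusted p = 0.107 in edgeR and 0.016 in the paired fit, with 29.1% of the genes in that fit called). *Vgf* was also called without preparation 7 (0.00381) or 8 (0.00297). With TTX/NMDA, *Scg3* and *Chga* were higher and *Pcsk2* lower, with 21.1% of all genes called and the limits on *Chga* given with that gene. The paired fit added *Scg5*, higher (52.3% of the genes in that fit). For *Vgf* this difference was −0.0026 (SE 0.12, adjusted p = 0.989).

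Whether the effects differed between the protocols was tested by an interaction term over the 20 libraries concerned. For the passive effect, 0 of the 10 genes were called by edgeR, by DESeq2 or in the paired fit, with 1 gene, *Pcsk1*, at an unadjusted p under 0.05 and 0.256% of all genes called. The active effect was more negative in the LP than in the SP for *Pcsk1* (difference −1.11, SE 0.15, adjusted p = 5.12e-06), *Pam* (−0.40, SE 0.11, adjusted p = 0.035) and *Pcsk2* (−0.34, SE 0.10, adjusted p = 0.0453), with 2.57% of all genes called. The paired fit called these 3 and also *Scg2* (−0.34, SE 0.12, adjusted p = 0.136 in edgeR and 0.0246 in the paired fit) and *Chgb* (−0.17, SE 0.09, adjusted p = 0.458 and 0.0444). Of the genes in that fit 25% were called. The call for *Pam* was lost without preparation 1 (0.0834), 3 (0.0568) or 7 (0.0996), and that for *Pcsk2* without preparation 1 (0.163), 3 (0.101), 6 (0.113) or 7 (0.0647). *Pam* had no active effect in the SP that passed the test, at a time when its level had not yet risen with Bic. The protocols differ both in the time before and in the time after the drugs were added, and these cannot be told apart.

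**Figure D4:**
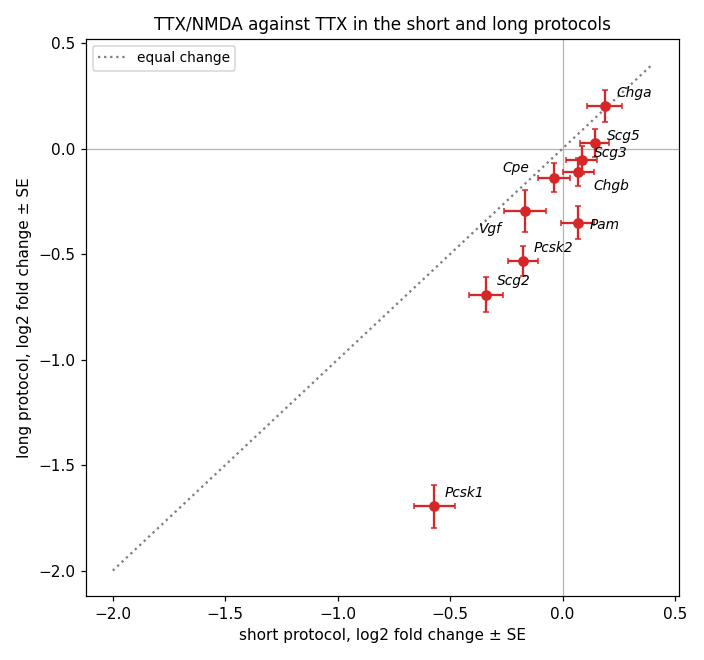
Log2 fold change ± SE of TTX/NMDA against TTX for each of the 10 genes in the SP (horizontal axis) and the LP (vertical axis). The dotted line marks equal change, and *Pcsk1* lies farthest below it, at −0.57 in the SP and −1.70 in the LP.

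Related genes of the pathway were taken from 4 lists. Of 15 other convertases and processing factors, 1 rose and 1 fell after 2 h Bic, where 9.02% of all genes were called. The paired fit called 6 of 14 higher and 1 lower, with 29.3% of the genes in that fit called. The list median was 0.14, against −0.0061 over all genes tested. *Atp7a*, the copper transporter that supplies the amidating enzyme, was higher (5.65 ± 0.938 to 9.48 ± 0.382 CPM, log2 0.74, adjusted p = 2.32e-05), and the site-1 protease gene *Mbtps1* was lower (68.7 ± 2.19 to 54.5 ± 1.93 CPM, −0.35, adjusted p = 0.000861). With TTX/NMDA against TTX in the LP, 2 rose and 5 fell, where 23.3% of all genes were called. The paired fit called 6 of 14 higher and 6 lower, with 62.1% of the genes in that fit called. The list median was 0.12, against 0.11 over all genes and −0.011 over the 13592 genes with a mean of at least 1 CPM. The fallers included *Cpd*, a carboxypeptidase of the trans-Golgi network (249 ± 28.8 to 113 ± 15.2 CPM, −1.15), its relative *Cpm* (−1.38), *Atp7a* (12.7 ± 0.657 to 6.03 ± 0.802 CPM, −1.09) and the convertase gene *Pcsk5* (−0.53).

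Of 26 genes for the biogenesis and release of dense-core vesicles, 3 rose and 0 fell after 2 h Bic (median 0.088), a share near the 9.02% of all genes called and the 10.3% of abundant genes that were higher. They were *Syt4*, a synaptotagmin of dense-core vesicles (379 ± 64.4 to 643 ± 48.4 CPM, 0.75), *Ptprn*, a vesicle membrane protein (0.32), and *Syt7*, a calcium sensor of slow release (0.31). The paired fit called 6 of the 26 higher and 2 lower, with 29.3% of the genes in that fit called. In the LP with TTX/NMDA against TTX, 3 rose and 13 fell (median −0.24), the fallers with the lowest p being *Ptprn2* (−0.78), *Cadps2* (−0.58), *Syt7* (−0.51) and *Syt4* (640.2 ± 69.2 to 399.9 ± 81.0 CPM, −0.69). As for the 10 genes, this is to be set beside the 60.4% of abundant genes that were lower there. The paired fit called 5 of the 26 higher and 15 lower, with 62.1% of the genes in that fit called.

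Of 19 neuropeptide precursors, 8 rose and 0 fell after 2 h Bic (median 0.52), where 9.02% of all genes were called and, as given above, inhibitory markers were higher. The paired fit called 10 of 17 higher and 0 lower, with 29.3% of the genes in that fit called. Among the 8 were the enkephalin precursor *Penk* (4.70 ± 0.691 to 24.1 ± 3.68 CPM, 2.35), the PACAP precursor *Adcyap1* (13.4 ± 3.75 to 31.7 ± 10.6 CPM, 1.23), the corticotropin-releasing hormone gene *Crh* (1.73) and *Cartpt* (1.69). With TTX/NMDA against TTX in the LP, 5 rose and 0 fell (median 0.30). Of all 32852 genes tested there, 23.3% were called in either direction and 3807 were higher. The paired fit called 12 of 17 precursors higher and 0 lower, with 62.1% of the genes in that fit called. Among the 5 were *Sst* (343 ± 63.5 to 486 ± 86.5 CPM, 0.50), *Tac2* (0.71), *Cort* (0.50) and *Cck* (0.34), most of them known as peptides of interneurons. Of 10 peptide-degrading enzymes, none was called after 2 h Bic by edgeR or in the paired fit (median 0.071). In the LP *Anpep* (0.82) and *Ece2* (0.58) rose and *Prep* (−0.38) fell with TTX/NMDA (median 0.064), where 23.3% of all genes were called. The paired fit called 4 of 9 of these enzymes higher and 2 lower there, with 62.1% of the genes in that fit called.

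**Figure D5:**
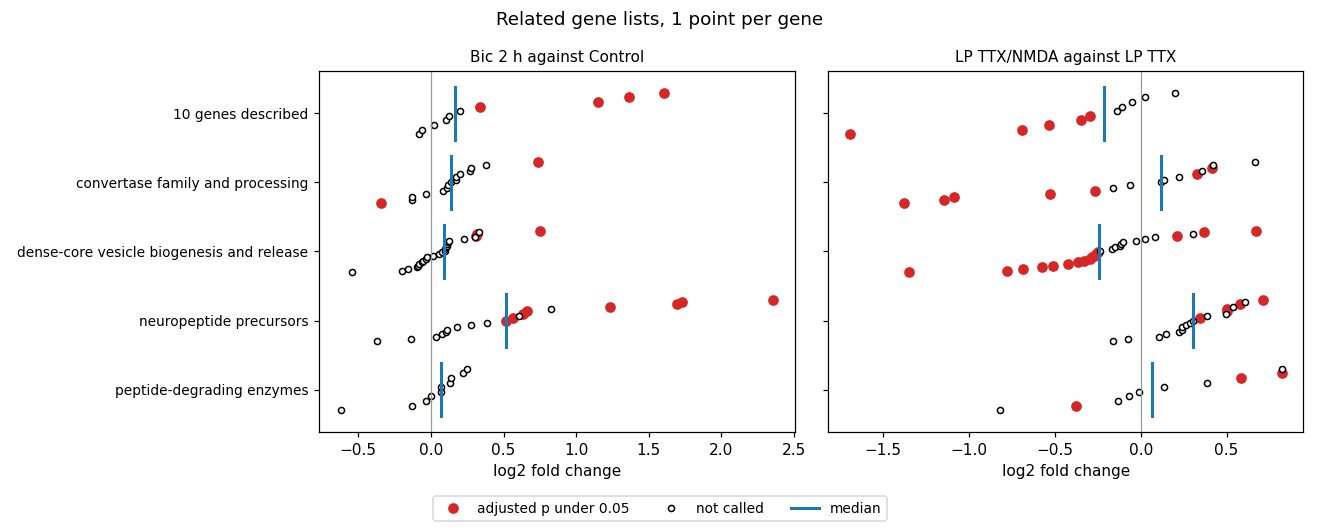
Log2 fold change (horizontal axes) of each gene in the 4 related lists and of the 10 genes, after 2 h Bic against the control (left) and with TTX/NMDA against TTX in the LP (right). Filled red points are called, open points are not, and blue bars are medians. The median of the 26 vesicle genes is 0.088 on the left and −0.24 on the right, and that of the 19 neuropeptide precursors 0.52 and 0.30.

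Over the 9 condition means of log2 CPM, *Vgf* and *Scg2* had a Pearson r of 0.97, *Scg2* and *Pcsk1* of 0.95 and *Pcsk1* and *Pam* of 0.92, whereas *Pcsk1* and *Pcsk2* had 0.16. These are descriptions over 9 points that share preparations. By the same measure, the genes most like *Vgf* were *Plk3* (r = 0.991), *Ubald1*, *Mknk2*, *Rtl5* and *Per1* (0.987), and those most like *Scg2* were *BC049715* (0.993), *Fezf2*, *Zfand5*, *Fgl2* and *Rtl5* (0.992). Over the 45 libraries with each preparation centred, the lists held other genes, with *Ina* (0.962) and *Unc45a* (0.962) first for *Vgf* and *Ifrd1* (0.979) and *Utp14b* (0.975) first for *Scg2*.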

How the data were processed

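RNA from 45 cultures was sequenced by the authors as strand-specific poly-A libraries (NextSeq 500, single-end, 75 cycles). According to the submitters' processing notes and the methods, the authors used bcl2fastq (2.20.0.422), aligned reads with STAR (2.5.4b) to GRCm38 and counted the sense strand per Ensembl gene with featureCounts (1.6.5), leaving out multi-mapping reads and reads shared by overlapping genes. The deposited values are raw counts per gene. Genes that overlap others on the same strand lose reads in this way.

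The counts were scaled by TMM and tested with edgeR (4.0.16, quasi-likelihood test) on the groups of each comparison alone, over genes with at least 1 read, with Benjamini-Hochberg adjustment over all genes and a threshold of 0.05. Every preparation contributed to every condition, and the labels give the preparation, so that libraries are paired. Their deviations from condition means had a mean correlation of 0.43 within and −0.11 between preparations (13592 genes). The paired fit takes the preparation as a replicate block over genes that pass filterByExpr. The fits were tested on simulated data, in which the unpaired fit made more false calls than its nominal rate. The fits differ in the gene filter as well as in the block, so that this excess cannot be assigned to the missing block alone. How far the excess reaches genes as abundant as those reported is not given here. DESeq2 (1.42.0), other filters and scalings and leaving out each preparation were alternatives, run in R (4.3.3). Separate preparations are separate cultures. The p-values of the unpaired fit set a difference against the spread of the libraries within a condition. Those of the paired fit set it against the spread that is left once the differences between preparations are taken out.

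Symbols came from the reference gene table, gene coordinates and exon lengths from GENCODE (GRCm38), and promoters from RefSeq (GRCm38.p6). The 10 genes and the lists were chosen with earlier results of these data known. All 10 were to be named with their levels, and from each list up to 4 called genes with the lowest p in 2 comparisons, 2 h Bic against control and TTX/NMDA against TTX in the LP. The 5 genes most like *Vgf* and *Scg2* were to be named by Pearson r.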

Additional observations from a re-analysis of the deposited data

Results flagged for a closer look

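Within each condition, the level of each gene was examined for a single library far from the other 4, by the gap to its nearest neighbour as a share of the group's whole range (Dixon's limit of 0.71 for 5 libraries). Of 90 groups, 7 exceeded the limit, and about 1 in 20 does so by chance. Preparation 6 was high for *Scg2* in the LP with TTX (794 CPM, next 624, share 0.818) and with TBOA (647 CPM, next 604, share 0.719), and for *Scg5* after 2 h Bic (162 CPM, next 149, share 0.762). Preparation 1 was low for *Scg3* after 1 h Bic (153 CPM, next 181, share 0.871) and in the LP with TTX (188 CPM, next 223, share 0.902). *Pcsk1* was low in preparation 3 after 2 h Bic (185 CPM, next 229, share 0.833) and high in preparation 7 in the SP with TTX (109 CPM, next 76.5, share 0.804).

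The active effect differed between the protocols by a test of the difference itself for 3 genes. It was more negative in the LP by −1.11 on the log2 scale for *Pcsk1*, −0.34 for *Pcsk2* and −0.40 for *Pam*.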

How the results depend on the processing

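Of 39 calls of the 10 genes over all comparisons, 29 were made under every alternative and 32 under every alternative that kept all preparations, and 0 results reversed. RLE scaling changed no call. Calls that were lost were those of *Vgf* in 4 comparisons, and of *Scg2*, *Pcsk1*, *Pcsk2*, *Pam* and *Chga* in 1 or 2 each. With filterByExpr, the members called fell from 2 to 1 after 1 h Bic, and from 1 to 0 for the passive effect in the SP, the passive effect in the LP and TBOA. With 1 fit over all 45 libraries they also fell to 0 for these 3 comparisons. With DESeq2 they were 0 for the passive effect in the LP and 2 for TBOA. The cause of these shifts was not tested. With the replicate block over filterByExpr genes, the members called were 7 between 1 and 2 h Bic, 0 for the passive effect in the SP, 5 for that in the LP, 8 for the total effect in the LP, 3 for TBOA and 5 for the active effect between the protocols. The block added 20 calls and removed 1, all given with the results, and changed no other call. Leaving out each preparation in turn gave 0 to 2 called for the passive effect in the SP, 2 to 4 for the total effect in the SP, 0 to 1 for the passive effect in the LP, 1 to 2 for TBOA and 1 to 3 for the active effect between the protocols. The 5 genes most like *Vgf* or *Scg2* shared 0 with those found over 45 centred libraries. As to depth, the lowest count of any of the 10 genes in any library was 757 (*Pcsk1*, control).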
